A study of Mus musculus with 240 samples.

Results

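Described here are 7 of the 34623 genes in the count table: 5 retrocopies (Gm9008, Gm8822, Gm15899, Gm5436 and Rps2-ps13) and 2 parent genes (Rnf26 and Actr3). They were chosen by name, because earlier results of these data had called the retrocopies between genotypes: Gm9008 and Gm8822 in mutant against WT cells at 12 and 90 days post induction (dpi), Gm5436 at 90 dpi, and Rps2-ps13 in the interaction of genotype with time between 90 and 150 dpi, where 30.0% of all genes passed. Gm15899, a second copy of Actr3, was listed with its parent. The parents of Gm5436 and Rps2-ps13, which are Atp5o and Rps2, are outside the list and were added by sequence identity. Because the genotype contrasts at 12 and 90 dpi chose the retrocopies, their values there are given as a description with no test.

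A retrocopy arises when a spliced messenger RNA is reverse transcribed and inserted at another place in the genome, so it lacks the introns of its parent. Most retrocopies bring no promoter of their own and are annotated as processed pseudogenes, but some are transcribed from where they landed, and some differ in presence or transcription between inbred strains. Because copy and parent are near-identical, a short read often fits both, and a counting program has to divide such reads between them.

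The libraries hold RNA of oligodendrocyte precursor cells (OPCs), the glial progenitors that make myelinating cells, taken from mouse brain sections by laser-capture microdissection. Bulk libraries (48, from 37 mice, sections of 10 µm) are labelled tdTomato-positive in both genotypes, and both genotypes are timed from the start of tamoxifen. CKO mice are labelled Trp53-/- Nf1-/-, lacking the tumour suppressors p53 and neurofibromin, and were sampled at 12 dpi (7 animals), at 90 dpi (7) and, as tumours of that genotype, at 150 dpi (7 animals, group Tumor). WT mice were sampled at 12 (5), 90 (5) and 150 dpi (6). Another 192 small libraries came from CKO mice at 12 and 90 dpi (sections of 8 µm): 112 hold 10 captured cells each (10-cell), and in the other 80 RNA of pooled cells was split into samples (pool-and-split). The Cre line, the age and the strain background of the animals are not given in the sources used here.

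Total counts per animal ran from 2.32 to 31.3 M (M, 1000000 counts), except for WT_21167 at 90 dpi with 0.0937 M, whose values have few counts behind them. The median was 24.0 M in Tumor and 4.19 M in WT animals at 150 dpi, and 16.0 against 3.47 M at 12 dpi, so levels near 0 are less certain in WT. A level of 0 allows up to 3 counts, which is 0.0845 CPM in the animal where that limit was lowest, 1.70 CPM in WT_21592 and 28.4 CPM in WT_21167. CPM use the library size after TMM scaling (trimmed mean of M values). All 6 OPC markers checked (Pdgfra, Cspg4, Olig1, Olig2, Sox10 and Ptprz1) were above 0 in every animal, and summed to between 1345 and 2845 counts per 1000000 (CPM) outside tumours. The 3 neuron markers (Rbfox3, Snap25 and Syt1) summed to 3705 to 9554 CPM in the same animals, so the captured RNA was not of OPCs alone. In bulk samples, fewer cells of a type and less RNA per cell cannot be told apart.

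The pairs below show how little separates copy from parent. For each pair, 120 bases of the coding part of the parent and the same stretch of the copy are given 5′ to 3′ on the sense strand, from GENCODE M21 transcripts on GRCm38, with the bases that differ in capitals. Gm9008 (ENSMUSG00000072476, chromosome 6, 76495432 to 76497784, minus strand, 1 exon, annotated as protein-coding) matched Rnf26 (ENSMUSG00000053128, chromosome 9, 44095631 to 44113517) at 99.1% of 2322 aligned bases, with 17 mismatches and 5 gap positions. An antisense gene, Gm44166, overlaps it, and Mfrp and C1qtnf5 overlap Rnf26 on the opposite strand. Whether the counting used strand is not given in the sources used here.
Rnf26: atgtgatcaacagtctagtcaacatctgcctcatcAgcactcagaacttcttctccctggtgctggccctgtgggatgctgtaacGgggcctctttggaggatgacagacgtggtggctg
Gm9008: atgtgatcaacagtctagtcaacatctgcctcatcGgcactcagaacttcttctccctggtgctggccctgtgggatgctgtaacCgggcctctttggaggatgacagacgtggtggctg

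Gm8822 (ENSMUSG00000082319, chromosome X, 81820384 to 81822730, minus strand, a processed pseudogene of 1 exon with no other annotated gene at its place) matched Actr3 (ENSMUSG00000026341, chromosome 1, 125392905 to 125435727, 12 exons) at 98.8% of 2348 bases, with 26 mismatches and 3 gap positions.
Actr3: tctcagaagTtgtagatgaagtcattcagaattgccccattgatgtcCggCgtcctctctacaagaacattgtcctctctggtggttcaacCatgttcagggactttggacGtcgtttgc
Gm8822: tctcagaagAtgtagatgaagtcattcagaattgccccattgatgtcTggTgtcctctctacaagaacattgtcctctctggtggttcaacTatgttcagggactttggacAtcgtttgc

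Gm15899 (ENSMUSG00000085917, chromosome 8, 122683602 to 122683839, minus strand, within the bounds of Cbfa2t3) is only 238 bases long. All 238 are identical to Actr3, and 2 differ from Gm8822, so its whole sequence is shown against that copy.
Gm15899: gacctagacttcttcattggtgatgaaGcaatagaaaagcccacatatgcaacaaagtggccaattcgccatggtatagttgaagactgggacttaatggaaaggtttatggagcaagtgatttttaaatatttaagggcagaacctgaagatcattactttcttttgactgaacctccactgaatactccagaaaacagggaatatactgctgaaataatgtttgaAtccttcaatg
Gm8822 along it: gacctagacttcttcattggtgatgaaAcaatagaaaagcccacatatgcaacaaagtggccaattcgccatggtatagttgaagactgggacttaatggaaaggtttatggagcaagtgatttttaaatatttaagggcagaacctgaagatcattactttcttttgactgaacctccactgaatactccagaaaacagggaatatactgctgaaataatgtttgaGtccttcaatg

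Gm5436 (ENSMUSG00000042962, chromosome 12, 84258331 to 84258973, minus strand, a processed pseudogene) is the most diverged copy, at 97.0% identity and 19 mismatches over 643 bases of Atp5o (ENSMUSG00000022956). The count table places Atp5o at chromosome 16, 91684398 to 91931687, bounds that differ from those in GENCODE M21. Another GENCODE gene of the same name overlaps these bounds, as do Donson, Cryzl1 and Itsn1.
Atp5o: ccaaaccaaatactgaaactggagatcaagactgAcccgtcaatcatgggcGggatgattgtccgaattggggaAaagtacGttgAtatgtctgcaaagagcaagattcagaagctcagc
Gm5436: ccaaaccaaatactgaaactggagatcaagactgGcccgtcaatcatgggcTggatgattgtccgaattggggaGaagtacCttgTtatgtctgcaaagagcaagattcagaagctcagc

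Rps2-ps13 (ENSMUSG00000081684, chromosome X, 52898588 to 52899469, plus strand, a processed pseudogene, nearest protein-coding gene Phf6 at 12797 bases) matched Rps2 (ENSMUSG00000044533, chromosome 17, 24718116 to 24721929) at 99.2% of 882 bases with 7 mismatches. The single closest gene to it was another copy, Rps2-ps10, at 99.8%. Rps2 is used as its parent below, since it is the gene with introns that both copies derive from by name.
Rps2: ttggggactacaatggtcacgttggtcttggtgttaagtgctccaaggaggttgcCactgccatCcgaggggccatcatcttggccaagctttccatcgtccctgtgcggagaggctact
Rps2-ps13: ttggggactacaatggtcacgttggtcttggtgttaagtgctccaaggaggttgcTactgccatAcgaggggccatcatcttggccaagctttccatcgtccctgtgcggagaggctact

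The copies differ in what they could still encode. Along the parent's reading frame, Gm9008 kept all 424 codons (6 would change an amino acid), Gm5436 all 213 (10 changes) and Rps2-ps13 all 293 with 0 changes. Gm8822 met a stop after 210 of 418 codons. The share of windows of 50 bases found in no other annotated transcript was 74.6% for Gm5436, 47.2% for Gm8822, 34.6% for Gm9008, 10.2% for Rps2-ps13 and 0% for Gm15899. Among the parents it was 50.2% for Actr3, 49.7% for Atp5o, 28.7% for Rps2 and 3.85% for Rnf26, which overlaps Gm49380 on the same strand. Gm49380 is not in the count table, and windows were compared with all annotated transcripts. The 3.85% therefore does not show how far reads of Rnf26 were divided among counted genes. Leaving Rnf26 aside, values for Rps2-ps13 and Rps2 rest most on how reads that fit several genes were divided. Reads of Gm15899 cannot be told apart from those of Actr3.

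Rnf26 encodes a ubiquitin ligase of the endoplasmic reticulum membrane that positions endosomes and acts on the innate immune adaptor STING. In the bulk libraries its copy Gm9008 was low but present in every mutant animal and near 0 in every WT animal; the small libraries of CKO cells, given further on, differed from this at 12 dpi. At 12 dpi, Gm9008 ran from 1.58 to 4.38 CPM in the CKO animals, with a median of 2.52. The 5 WT animals held 0.290, 0.335, 0.389, 0.467 and 0.608 CPM, which are 1 to 4 counts each. At 90 dpi the CKO animals ran from 1.72 to 3.21 CPM (median 2.84), and the WT animals held 0, 0, 0.166, 0.206 and 0.207 CPM. The lowest CKO animal lay above the highest WT animal at both times. Across 16349 genes tested, the groups did not overlap for 1.33% at 12 dpi and for 0.758% at 90 dpi; nothing is read from this, because these contrasts chose the gene.

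The 150 dpi animals had no part in that choice. Gm9008 was at 1.94 to 5.84 CPM in the 7 tumours (median 3.55) and at 0 to 0.378 CPM in the 6 WT animals (median 0.161), where 2 had no count. Tumours averaged 3.85 ± 1.24 CPM (SD, n = 7), whereas WT animals averaged 0.165 ± 0.163 CPM (SD, n = 6), and the groups did not overlap, as for 15.7% of genes tested. The log2 change was 4.34 (SE 0.50, edgeR adjusted p 6.2e-09), in a comparison where 46.2% of all genes passed the threshold of 0.05. The 7 CKO animals at 90 dpi averaged 2.61 CPM. Marker sums also differed at 150 dpi: neuron markers summed to 170 to 911 CPM in tumours and to 4842 to 7166 in WT, and OPC markers to 3685 to 7270 and 1361 to 2845 CPM. The 3 microglia markers (Cx3cr1, P2ry12 and C1qa) summed to 86.2 to 239 CPM in tumours and to 40.2 to 67.6 in WT, and the 3 astrocyte markers (Aqp4, Gfap and Aldh1l1) to 183 to 529 and 76.0 to 134 CPM. None of these 4 sums overlapped between the groups. Their part in this and the other 150 dpi results was not tested.

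The parent Rnf26 stayed within 7.70 to 27.4 CPM in all 37 animals. At 12 dpi CKO animals averaged 18.3 ± 2.34 CPM (SD, n = 7) beside 20.1 ± 4.72 CPM (SD, n = 5) for WT. At 90 dpi the means were 14.4 ± 3.95 (SD, n = 7) beside 14.5 ± 3.12 CPM (SD, n = 5), and at 150 dpi tumours held 17.3 ± 5.57 (SD, n = 7) beside 17.1 ± 3.91 CPM (SD, n = 6) for WT. The log2 differences were -0.18 (SE 0.21), -0.10 (SE 0.22) and 0.01 (SE 0.20), none of them called, with edgeR adjusted p of 0.981 at 150 dpi. At 12 and 90 dpi, 0 of the 4 parents passed, where 0.0183% and 0.0489% of all genes did. DESeq2 also called none of the parents at these times, and 793 and 850 of all genes had an unadjusted p under 0.05.

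As a share of the counts of its pair, Gm9008 made up 8.43 to 19.7% in CKO animals at 12 dpi and 1.66 to 2.56% in WT. At 90 dpi it made up 11.0 to 21.6% and 0 to 1.49%. In tumours it was 7.74 to 28.3%, against 0 to 3.07% in WT at 150 dpi. The mean share at 150 dpi was 19.6 ± 8.48% (SD, n = 7) for tumours beside 1.23 ± 1.25% (SD, n = 6) for WT, higher in 7 of 7 tumours than in any WT animal. The two-sided exact permutation test over 1716 assignments gave p = 0.0011655, the smallest it can give, and 0.00466 adjusted over the 4 pairs. The sum of Gm9008 and Rnf26, which does not depend on how reads were divided between them, had a log2 change of 0.29 (SE 0.18, edgeR adjusted p 0.208) and was not called. It was called with RLE size factors (0.44, edgeR adjusted p 0.0481) and with DESeq2 (0.44, adjusted p 0.0413).

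**Figure D1:**
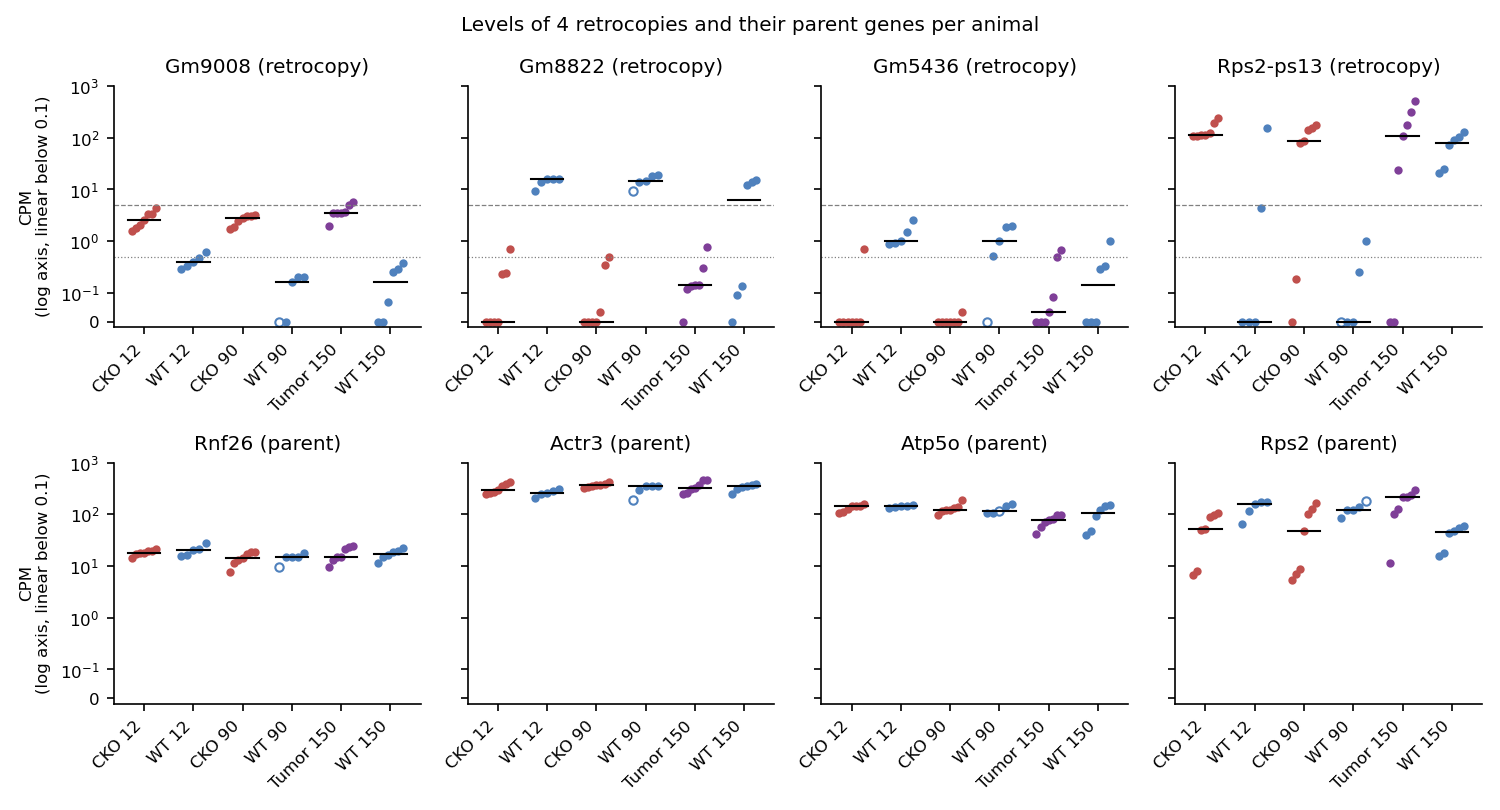
CPM of each retrocopy (top) and its parent (bottom) for every animal by group, on a log axis that is linear below 0.1. Points are animals, open points the animal with under 1000000 counts, bars medians, and the dashed and dotted lines mark 5 and 0.5 CPM. Gm9008 lies between 1.58 and 5.84 CPM in mutant animals and at or under 0.608 in WT, Gm8822 lies between 9.34 and 19.1 CPM in WT animals at 12 and 90 dpi and at or under 0.760 in mutant ones, and the 4 parents are above 5 CPM in every animal.

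Actr3 encodes a core subunit of the Arp2/3 complex, which starts branched actin filaments at the edge of moving cells and in growing processes. Its X-linked copy Gm8822 was present in all WT animals at 12 and 90 dpi and in 3 of 6 at 150 dpi, and was at or near 0 in the mutant animals. At 12 dpi the 5 WT animals held 9.34, 14.0, 15.6, 15.9 and 16.1 CPM, and the CKO animals 0 to 0.721 CPM (median 0, with 4 of 7 at 0). At 90 dpi the WT animals held 9.46 (WT_21167, a single count), 13.7, 14.3, 18.1 and 19.1 CPM, and the CKO animals 0 to 0.489 (median 0, with 4 of 7 at 0). Each WT animal lay above every CKO animal at both times, with the value of WT_21167 under the 28.4 CPM that a count of 0 allows there. Groups did not overlap for 1.33% of genes tested at 12 dpi and 0.758% at 90 dpi, and nothing is read from the split, since these contrasts chose Gm8822.

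At 150 dpi the WT animals themselves split. WT_21591, WT_21592 and WT_22062 held 15.1, 12.5 and 14.0 CPM of Gm8822. The other 3, WT_21590, WT_21593 and WT_22064, held 0, 0.0944 and 0.136 CPM, which are 0, 1 and 2 counts. Tumours ran from 0 to 0.760 CPM with a median of 0.141, so these 3 WT animals lay within the range of the tumours. Tumours averaged 0.229 ± 0.251 CPM (SD, n = 7), whereas WT averaged 6.97 ± 7.59 CPM (SD, n = 6). The log2 change was -4.82 (SE 0.96, edgeR adjusted p 7.7e-05) with 3 of 6 WT animals within the range of the tumours. The share of the pair did not pass its own test: it was 0.0809 ± 0.0951% (SD, n = 7) for tumours beside 1.94 ± 2.12% for WT (SD, n = 6, exact permutation p 0.126, adjusted 0.191).

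Actr3 itself was at 189 to 469 CPM in all animals. At 12 dpi CKO animals averaged 319 ± 68.8 CPM (SD, n = 7) beside 260 ± 37.0 CPM (SD, n = 5) for WT. At 90 dpi the means were 363 ± 35.1 (SD, n = 7) beside 307 ± 70.0 CPM (SD, n = 5), and at 150 dpi tumours held 348 ± 90.3 (SD, n = 7) beside 332 ± 51.1 CPM (SD, n = 6) for WT. None of these differences was called (log2 0.28, 0.21 and 0.07, edgeR adjusted p 0.777 at 150 dpi). Gm8822 made up 3.67 to 6.96% of the pair in WT at 12 dpi and 3.94 to 6.68% at 90 dpi, and at most 0.285% in any CKO animal or tumour. With so small a share, the sum of the pair followed Actr3 (log2 change 0.04, SE 0.16, at 150 dpi).

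Gm15899 had 0 counts in 36 of 37 animals and in all 192 small libraries. The exception was WT_21167, the shallowest animal, with 2 counts. It passed no filter and was not tested.

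Atp5o encodes a subunit of the stalk of mitochondrial ATP synthase. Its copy Gm5436 never reached 5 CPM, and its highest value, 2.61 CPM, was 9 counts. At 12 dpi the WT animals held 0.875, 0.912, 1.00, 1.52 and 2.61 CPM, while 6 of 7 CKO animals were at 0 and CKO_21724 held 0.695. At 90 dpi the WT animals held 0 (WT_21167), 0.514, 0.998, 1.86 and 2.00 CPM, while 6 of 7 CKO animals were at 0 and CKO_22212 held 0.0321. At 150 dpi the groups overlapped. Tumours ran from 0 to 0.672 CPM (median 0.0353) and WT from 0 to 1.02 CPM (median 0.145), with 3 animals at 0 in each. The log2 change was -0.37 (SE 1.18, edgeR adjusted p 0.835), and the share of the pair was 0.273 ± 0.436% (SD, n = 7) for tumours beside 0.300 ± 0.373% for WT (SD, n = 6, exact permutation p 0.946). These values rest on 0 to 14 counts per animal, and without WT_21590 the log2 change was 1.13, the opposite sign.

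Atp5o did not pass between genotypes and fell in tumours against CKO cells at 90 dpi. At 12 dpi CKO animals averaged 133 ± 20.5 CPM (SD, n = 7) beside 143 ± 8.37 CPM (SD, n = 5) for WT, and at 90 dpi 131 ± 28.2 (SD, n = 7) beside 124 ± 23.9 CPM (SD, n = 5), with log2 differences of -0.12 (SE 0.23) and 0.07 (SE 0.24), neither called. Tumours held 74.5 ± 20.5 CPM (SD, n = 7). Against CKO cells at 90 dpi that was a log2 change of -0.80 (SE 0.21, edgeR adjusted p 0.0022), in a comparison where 49.1% of genes passed. Against WT at 150 dpi, which held 99.8 ± 48.8 CPM (SD, n = 6), it was -0.43 (SE 0.22, adjusted p 0.118) and was not called. Those WT animals were spread from 39.6 to 153 CPM, and the change passed without either of the lowest of them (-0.58, adjusted p 0.0240, without WT_21592 and -0.57, adjusted p 0.0351, without WT_21591).

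Rps2 encodes a protein of the small ribosomal subunit, and like other ribosomal protein genes it has many processed copies. The table holds 24 genes of its family at 95% identity or more, besides Rps2-ps13. Rps2-ps13 was the copy with the largest swings: it ran from 0 to 523 CPM over the 37 animals, and 9 of them held 0. All 7 CKO animals at 12 dpi held 108 to 241 CPM (median 115). Of the 5 WT animals at that time 3 held 0 and WT_22178 4.44 CPM, while WT_22056 held 155. At 90 dpi 5 CKO animals held 79.4 to 179 CPM, and CKO_20647 and CKO_22146 held 0.183 and 0, which are 3 and 0 counts. The WT animals at 90 dpi held 0, 0, 0, 0.257 and 1.00 CPM.

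At 150 dpi all 6 WT animals held Rps2-ps13, at 20.4 to 130 CPM (median 80.1). Of the tumours 5 held 24.1 to 523 CPM, and Tumor_16839 and Tumor_16844 held 0. The mean was 165 ± 196 CPM (SD, n = 7) for tumours beside 72.9 ± 43.2 CPM (SD, n = 6) for WT. The animals at 150 dpi were part of the contrast that chose Rps2-ps13, so no test is given.

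In the 6 animals where Rps2-ps13 made up 94.6% or more of the pair, Rps2 held 5.43 to 11.5 CPM, the lowest values of all 37. In the 14 animals where the share was at most 16.0%, Rps2 held 85.7 to 232 CPM. In the 17 animals between, at 43.7 to 71.0%, it ran from 15.3 to 298 CPM, and the highest Rps2 of all animals was in Tumor_21349, where the copy made up 63.7%. As the counts of one pair are set against each other here, these values are a description. For Rps2, CKO animals at 12 dpi averaged 58.4 ± 40.8 CPM (SD, n = 7) beside 135 ± 45.9 CPM (SD, n = 5) for WT, and at 90 dpi 66.4 ± 65.8 (SD, n = 7) beside 129 ± 34.4 CPM (SD, n = 5). The log2 differences of -1.22 (SE 0.67) and -0.90 (SE 0.69) were not called. At 150 dpi it was 172 ± 96.9 CPM (SD, n = 7) for tumours beside 39.4 ± 18.5 CPM (SD, n = 6) for WT, a log2 change of 2.11 (SE 0.68, edgeR adjusted p 0.0106). The sum of Rps2 and Rps2-ps13 was also called higher in tumours (1.51, SE 0.30, edgeR adjusted p 8.2e-05). In this comparison 46.2% of all genes passed. The 150 dpi animals were part of the contrast that chose Rps2-ps13, which shares reads with Rps2 and is part of the sum. Neither call is independent of that choice, and nothing is read from them.

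The shares of Rps2-ps13 in its pair fell into ranges with wide gaps. In 13 animals it was 0 to 3.71%, and in Tumor_21256 it was 16.0%. In 17 animals it was 43.7 to 71.0%, and in 6 it was 94.6 to 97.3%. No animal lay between 16.0 and 43.7% or between 71.0 and 94.6%. Females and males were in all 3 ranges that these gaps leave: 6 females and 8 males at or under 16.0%, 8 and 9 in the middle, and 4 and 2 above. The gene lies on the X chromosome, of which a male has a single copy. By group, the middle range held 5 CKO and 1 WT animals at 12 dpi, 2 CKO animals at 90 dpi, and 3 tumours and all 6 WT animals at 150 dpi. The upper range held 2 CKO animals at 12 dpi, 3 at 90 dpi and 1 tumour.

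**Figure D2:**
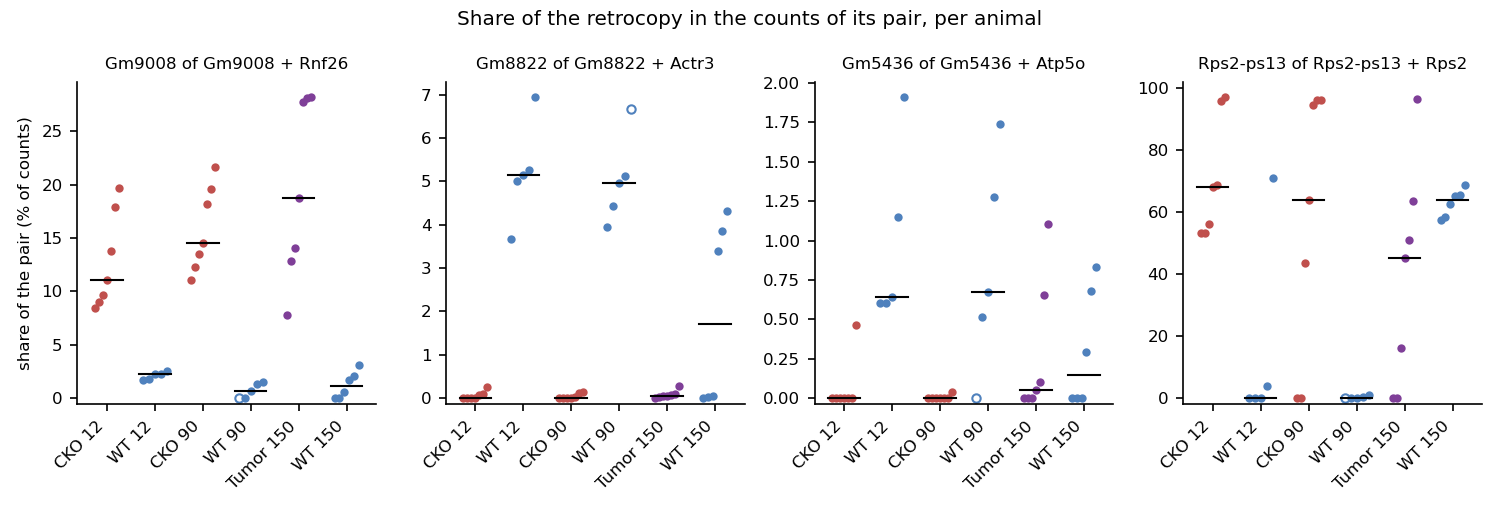
Share of each retrocopy in the counts of retrocopy plus parent, in percent, for every animal by group, with a linear axis of its own for each pair. Points are animals, the open point is the animal with under 1000000 counts, and bars are medians. Gm9008 ranges from 7.74 to 28.3% in mutant animals, and Rps2-ps13 sits at 0 to 16.0%, at 43.7 to 71.0% or at 94.6 to 97.3%.

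Counting the closest copy in changed the comparison at 150 dpi. Over Rps2-ps13 and Rps2 alone, the mean share was 38.9 ± 35.8% (SD, n = 7) for tumours beside 63.0 ± 4.34% (SD, n = 6) for WT. Over Rps2-ps13, Rps2 and Rps2-ps10 together it was 28.5 ± 26.6% (SD, n = 7) and 31.2 ± 13.5% (SD, n = 6). Rps2-ps10 was above 0 in all 37 animals, at 11.7 to 254 CPM, and these 3 genes held nearly all counts of the family, the other copies together reaching 0.0974 to 4.58% of it. The whole family summed to 174 to 344 CPM in CKO and WT animals at 12 and 90 dpi, to 138 to 310 in WT at 150 dpi and to 295 to 1078 in tumours.

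**Figure D3:**
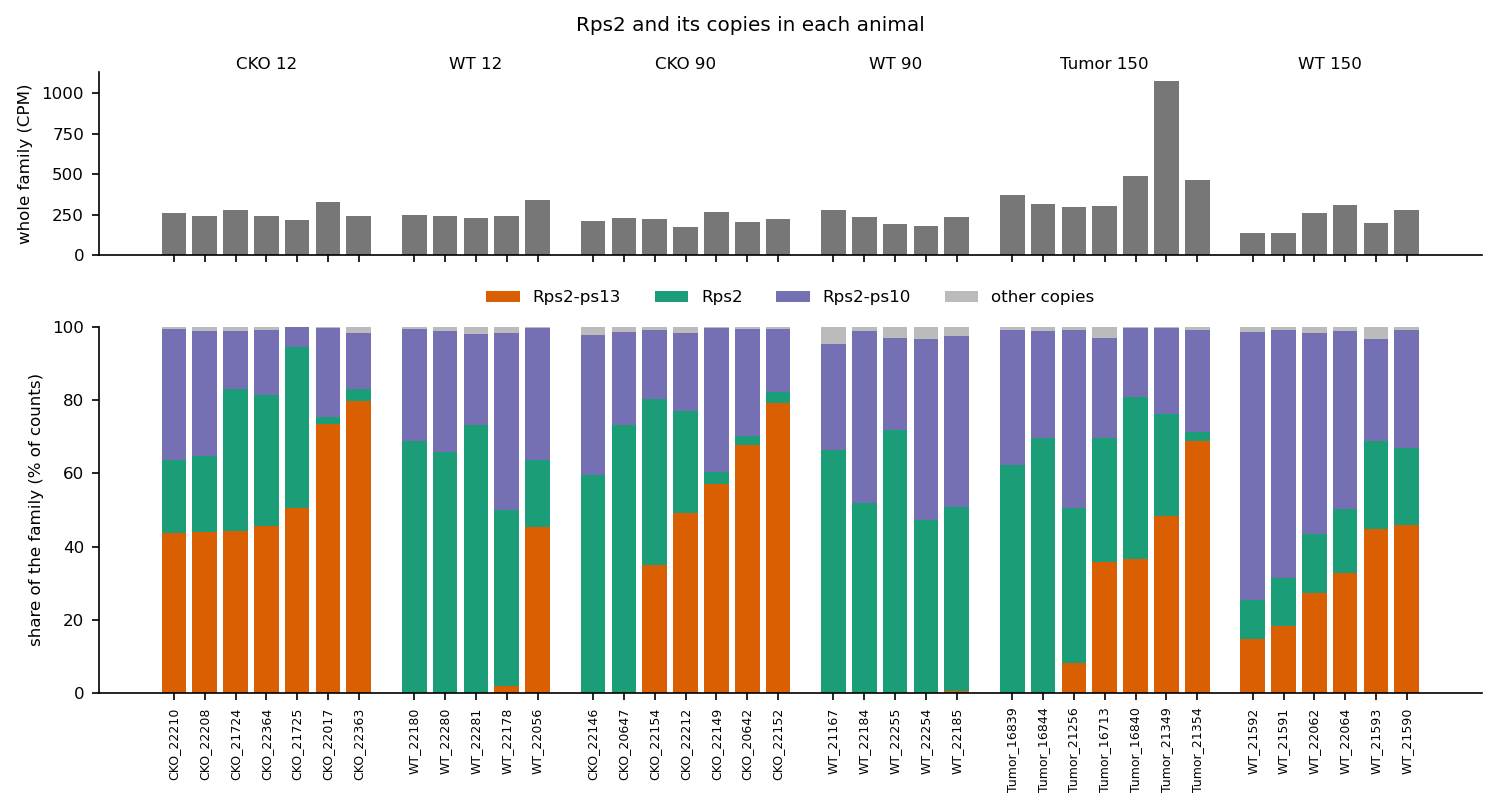
Rps2 and its copies in each of the 37 animals, ordered within a group by the share of Rps2-ps13. The upper bars give the CPM of the whole family and the lower bars the percent of its counts in Rps2-ps13, Rps2, Rps2-ps10 and the other copies. Rps2-ps13 takes up to 79.6% of the family in some animals and 0% in others, while Rps2-ps10 is present in all.

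Called on from 5 CPM, off under 0.5 CPM and intermediate otherwise, and leaving out WT_21167 for its depth, the 36 other animals fell as follows. Gm8822 was on in 12 animals, all WT, off in 22 and intermediate in 2. Rps2-ps13 was on in 24, off in 10 and intermediate in 2. Gm9008 was intermediate in 21, off in 14 and on in a single tumour, Tumor_16844. Gm5436 was intermediate in 13 and off in 23. So 2 of the 4 copies, Gm8822 and Rps2-ps13, were on in some animals and off in others, and Gm9008 and Gm5436 lay between a low level and none. That count depends on the thresholds: called on from 1 CPM and off under 0.1 CPM, Gm9008 was on in 21 animals and Gm5436 in 6, and all 4 copies were on in at least 3 and off in at least 3 of the animals without tumour. The states of Gm8822 and Rps2-ps13 were not one pattern: in WT at 12 and 90 dpi, 6 animals had Gm8822 on with Rps2-ps13 off, 2 with it intermediate and 1 with both on. In WT at 150 dpi, 3 animals had both on and 3 had Gm8822 off with Rps2-ps13 on.

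With on from 5 CPM and off under 0.5 CPM, such genes were uncommon in the table. Among the 29 animals without tumour and with over 1000000 counts, 12848 rows were on in at least 3, and 266 of them (2.07%) were also off in at least 3. The share was 1.56% of 12462 protein-coding rows and 22.8% of 246 processed pseudogenes, 56 genes. Of these 56, 5 lie on the X chromosome, including Gm8822 and Rps2-ps13. With on from 1 CPM and off under 0.1 CPM, the shares were higher. They were 12.3% of 16250 rows, 9.57% of 15167 protein-coding rows and 56.0% of 771 processed pseudogenes. Eno1b and Gm4735, copies that were also called at 90 dpi in earlier results, are among the 266. Both were on in all 14 CKO animals at 12 and 90 dpi and in all 6 WT animals at 150 dpi. At 12 dpi WT_22056 was the only WT animal with them on, as with Rps2-ps13, and no WT animal had them on at 90 dpi.

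Where an animal had 2 bulk libraries (11 animals, 4 CKO and 7 tumours), the libraries gave the same state in 11 of 11 for Rps2-ps13, and in 9 of 11 each for Gm9008, Gm8822 and Gm5436. Rps2-ps13 was on in both libraries of 8 animals and off in both of 3. All 11 animals are mutant, and Gm8822 and Gm5436 were on in 0 of their libraries, so their states could not have differed between on and off. The share of Rps2-ps13 differed between libraries by a median of 1.03 percentage points and at most 6.43 (CKO_22212, 60.4 and 66.9%). That of Gm9008 differed by a median of 4.28 and at most 22.3 points (Tumor_21256, 21.2 and 43.5%), so its single values carry more error.

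**Figure D4:**
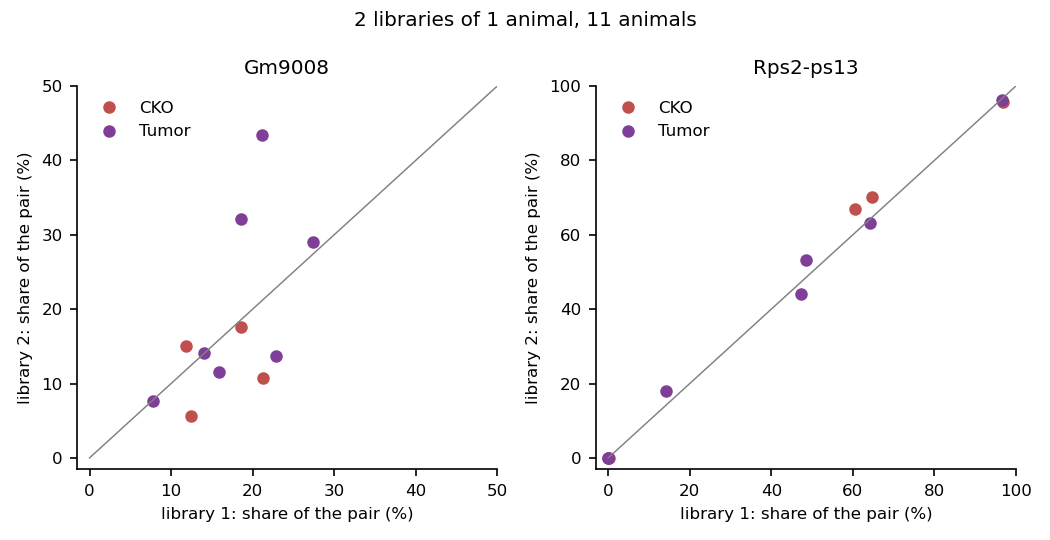
Share of Gm9008 (left) and Rps2-ps13 (right) in the counts of the pair, in percent, in library 1 against library 2 of the 11 animals with 2 libraries, with the line of equality. Points are animals. The libraries of an animal differ by at most 6.43 percentage points for Rps2-ps13 and 22.3 for Gm9008.

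The small libraries were made by PCR amplification from CKO cells and had no part in the choice of members. They form 8 sets of each kind by time, sex and the number that ends the label, 4 per time, with 14 10-cell or 10 pool-and-split libraries in a set. Rps2-ps13 again separated whole sets. In the 10-cell sets at 12 dpi its share of the pair was 51.7 and 43.4% in female set 1 and male set 1, and 0.117 and 0.0946% in female set 2 and male set 2. At 90 dpi it was 0.0617 and 0% in the female sets and 98.03 and 96.9% in the male sets. The pool-and-split sets of the same names gave 51.2, 61.1, 0.0233 and 0.0567% at 12 dpi and 0.0280, 0, 98.7 and 99.6% at 90 dpi, so each set had the same range as its namesake. Rps2 in the 90 dpi male sets was at 6.35 and 13.9 CPM (10-cell) and 1.31 and 1.76 CPM (pool-and-split), against 147 to 819 CPM in the other sets. The labels do not say whether sets of the same name share an animal.

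**Figure D5:**
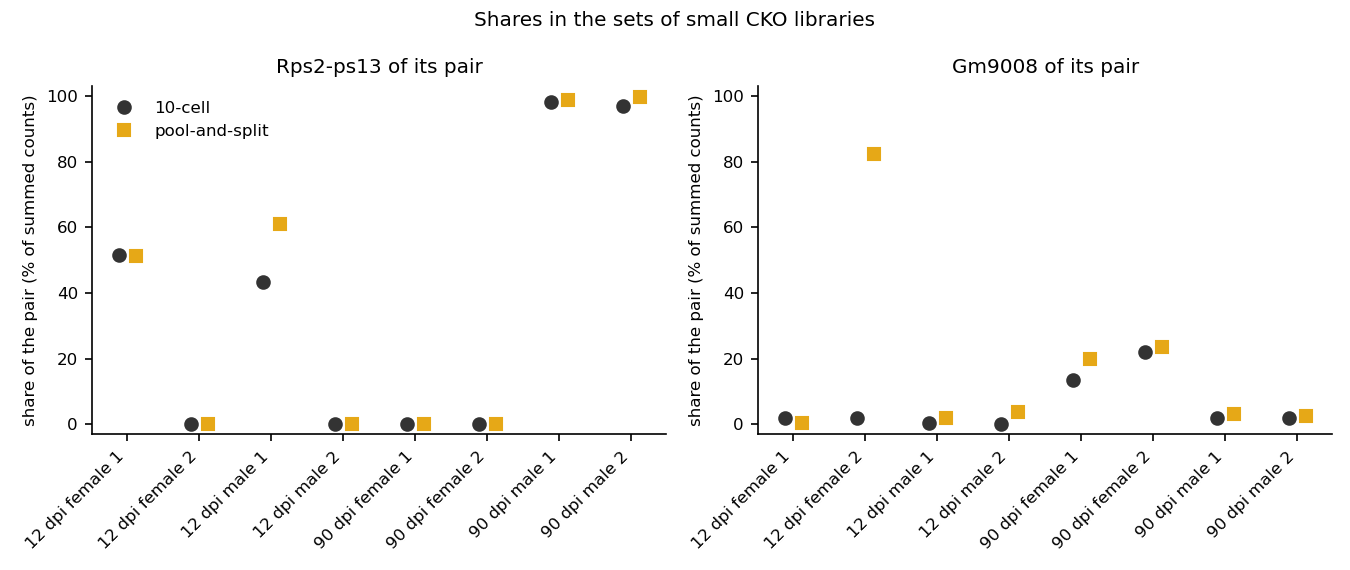
Share of Rps2-ps13 (left) and Gm9008 (right) in the summed counts of the pair, in percent, for the 8 sets of 10-cell (circles) and of pool-and-split libraries (squares). Rps2-ps13 is near 0, between 43.4 and 61.1%, or at 96.9% and more, and the 82.2% of Gm9008 at 12 dpi comes from 1 library.

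Gm8822 and Gm5436 had few counts in small libraries. Gm8822 had counts above 0 in 31 of 192 libraries, with at most 6.15, and Gm5436 in 38 with at most 8.85. Actr3 was itself at 1.80 to 86.4 CPM in the sets, under the 244 to 427 CPM of bulk CKO animals, so the CPM of Gm8822 cannot be set beside the bulk values. The share of Gm8822 in its pair was 0.0274 to 0.602% in the 10-cell sets and 0 to 1.79% in the pool-and-split sets, where the highest is 1 count, against at most 0.253% in bulk CKO animals.

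Gm9008 had counts above 0 in 64 libraries and 10 or more in 24. Its sets ran from 0 to 0.472 CPM at 12 dpi and from 0.111 to 8.97 at 90 dpi in 10-cell libraries, and from 0.0395 to 30.4 and from 0.537 to 23.6 in pool-and-split libraries. The value of 30.4 CPM rests on 1 library of 10, which held 99.9% of the counts of that set. As a share of the pair, Gm9008 made up 0 to 1.97% in the 10-cell sets at 12 dpi, with 0 counts in male set 2, and 0.396, 2.04 and 3.70% in the pool-and-split sets other than that one. These 7 sets lay under all bulk CKO animals at 12 dpi (8.43% or more), and bulk WT animals held 1.66 to 2.56%. At 90 dpi the female sets held 13.4 and 22.0% (10-cell) and 19.8 and 23.4% (pool-and-split), and the male sets 1.95, 1.90, 3.03 and 2.53%, against 11.0 to 21.6% in bulk CKO animals. These 90 dpi shares rest on few libraries or counts. In female set 1, 1 library held 68.6% (10-cell) and 62.7% (pool-and-split) of the Gm9008 counts. In female set 2 it was 19.1 and 31.1%. The male sets held 16.93 and 5.84 (10-cell) and 23.63 and 16.45 (pool-and-split) counts of Gm9008 in all. Rnf26 was at 5.74 to 95.5 CPM in the sets. Over sets, no member passed the edgeR test between 90 and 12 dpi in either kind, where 0% of 14500 and of 13408 genes passed (1034 and 1050 had an unadjusted p under 0.05). For Gm9008 the log2 differences were 2.74 (SE 1.26, adjusted p 0.700) and 0.30 (SE 1.46, adjusted p 0.980). For Rps2-ps13 they were -3.69 (SE 7.74) and -4.66 (SE 5.38), with errors larger than the differences.

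No member differed by sex in the bulk animals, where 0.0489% of genes passed. The log2 difference, male minus female, was -0.04 (SE 0.61) for Gm8822 and -0.45 (SE 0.77) for Rps2-ps13, the 2 copies on the X chromosome. It was 0.31 (SE 0.25) for Gm9008, and the edgeR adjusted p of the 4 copies and 4 parents was 0.722 or more. Gm8822 was on in 5 of 17 females and 7 of 19 males with a state, and Rps2-ps13 in 12 and 12.

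The genes around the parents were followed in lists. Of the 10 genes of the Arp2/3 complex none was called at 12 or 90 dpi, where 0.0183% and 0.0489% of all genes were. With so few calls over all genes, a list without a call there says nothing about its genes. In tumours against WT at 150 dpi 4 of 10 were called, near the 46.2% of all genes, and the median log2 change was 0.05, beside 0.06 over all genes tested. Arpc1b rose from 8.15 to 115 CPM (log2 change 3.74, SE 0.34, edgeR adjusted p 1.5e-11), Arpc5 by 1.03 and Arpc4 by 0.61, while Actr3b, a paralog of Actr3, fell by 2.10 on the log2 scale. Of 8 partners of RNF26, none was called at 12 or 90 dpi, beside the same small shares of all genes. In tumours against WT 4 of 8 were called, near the 46.2% of all genes, with a median of 0.05. Tmem173, which encodes STING, rose from 1.80 to 16.5 CPM (2.88, SE 0.59, adjusted p 1.1e-04) and Tmem43 by 0.81. The microglia and astrocyte marker sums were also higher in tumours, as given above, and their part in these rises was not tested. Endod1 fell by 0.60 and Sqstm1, the autophagy receptor through which RNF26 holds endosomes, by 0.39. Of the 5 genes tested among Rps2 and its annotated pseudogenes, Rps2 was the only one called there. That call is not independent of the choice of Rps2-ps13, as given above. Of 722 processed pseudogenes tested, 143 were called (72 higher and 71 lower), with a median of 0.03. That is 19.8%, under the 46.2% of all genes, and the cause of the difference was not tested.

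The genes with the most similar pattern over the 37 bulk animals (mean of at least 1 CPM) were ranked by Spearman correlation of log2 CPM, given without a test because the animals share groups and depth. The contrasts that chose the copies used these same animals. A gene that differs between the same groups, such as one targeted in CKO mice, can rank high through that choice alone. Nothing is read from the ranks. For Gm9008 they were Ncan (0.859), which encodes the matrix proteoglycan neurocan, Cenpa (0.827), the centromeric histone, and Prc1 (0.823), a protein of the spindle midzone. For Gm8822 the first was Nf1 (0.674), a gene targeted in CKO mice, followed by Nvl (0.617) and Vcp-rs (0.568), a processed pseudogene on the X chromosome. Vcp-rs was at 5.22 to 12.0 CPM in WT animals at 150 dpi and at most 0.543 in tumours, but the groups overlapped before that: it ran from 0 to 9.20 CPM in CKO and 8.99 to 17.3 in WT animals at 12 dpi, and from 0 to 21.5 in CKO and 0 to 16.0 in WT animals at 90 dpi. For Gm5436 they were Zfp868 (0.650), Gm10073 (0.613) and Imp3 (0.605). For Rps2-ps13 they were Gm4735 (0.642), another processed pseudogene, Snrnp200 (0.630) and Pomt1 (0.629).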

How the data were processed

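Laser-captured OPC RNA was measured in 48 bulk, 112 10-cell and 80 pool-and-split libraries. The authors deposited expected counts per gene, whose reads were aligned with Bowtie2 and counted with RSEM on GRCm38, as these tools and this build are named in the submitters' processing notes. Versions are not given in the sources used here. RSEM divides a read that fits several genes by an estimate, so copy and parent values are not independent. Per the labels' protocols, T7-based linear amplification was used for bulk RNA and PCR for small samples.

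The deposited expected counts were rounded, the 92 spike-in rows were set aside, and the libraries of an animal were summed (11 animals had 2). edgeR 4.0.16 (R 4.3.3, limma 3.58.1) fitted all 37 animals in 1 quasi-likelihood model with group and sex, after TMM scaling and a filter (filterByExpr, minimum count 10, minimum total 15) that left 16349 genes. A gene was called where its p, adjusted by Benjamini-Hochberg over all genes tested, was under 0.05. P-values of the bulk comparisons measure the spread between these animals. Those of the small libraries measure the spread between sets, or between libraries where each library was a replicate. Shares at 150 dpi were compared by a two-sided exact permutation test that went through all assignments. Its p is 2 times the smaller tail, as scipy 1.17.1 defines it. Small libraries were summed per set. Parents were found with BLAST 2.17.0 on GENCODE M21 transcripts. By identity alone Rps2-ps10 would be the parent of Rps2-ps13; the gene with introns was used. Animals or libraries under 1000000 counts got no on or off state. The tests were tried on simulated data. Alternatives were DESeq2 1.42.0, other size factors, filters and samples, and other thresholds. Members and lists were chosen with earlier results of these data known. Named genes are the members, their parents and families, the 3 genes most like each copy, Eno1b, Gm4735 and the list genes. Total counts per animal ran from 0.0937 to 31.3 M (M, 1000000 counts). The limit of 3 counts covers counting error only, while SDs and the SEs of the edgeR fits include the spread between animals or sets.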

Additional observations from a re-analysis of the deposited data

Results flagged for a closer look

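In 104 groups of values, 16 had a sample set apart from the others by Dixon's criterion. Its nominal rate by chance, about 1 of 20 groups, is for independent normal values. Many of these values are counts at or near 0, and CPM and share of a copy were separate groups. The 16 therefore cannot be set against that rate. Most of the 16 were copies near 0. Gm8822 at 12 dpi was highest in CKO_22017, at 0.721 CPM and 0.253% of the pair, the other 6 animals being at or under 0.240 CPM. Gm5436 was above 0 in a single CKO animal at each time, CKO_21724 at 12 dpi (0.695 CPM, 0.466% of the pair) and CKO_22212 at 90 dpi (0.0321 CPM, 0.0383%). WT_22056 stood apart at 12 dpi with 155 CPM of Rps2-ps13 and a share of 71.0%, the other WT animals being at or under 4.44 CPM. At 90 dpi WT_22185 was highest in its group with 1.00 CPM of Rps2-ps13, which is 13 counts, and CKO_20647 was highest in Atp5o with 188 CPM, the others being at 97.6 to 136 CPM. At 150 dpi Tumor_16713 held the most Gm8822 of the tumours, 0.760 CPM and 0.285% of the pair, and WT_21590 the most Gm5436 of the WT animals, 1.02 CPM, which is 4 counts. Among small libraries, Gm9008 was apart in the 10-cell female set 2 at 90 dpi (8.97 CPM) and the pool-and-split female set 2 at 12 dpi (30.4 CPM, 99.9% of it from 1 library). Gm5436 was above 0 in 1 of 4 pool-and-split sets at 12 dpi (0.0484 CPM).

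The genotype effect on Rps2 differed between 90 and 150 dpi by the interaction term of the edgeR fit, in a comparison where 30.0% of all genes passed. The log2 difference, 150 minus 90 dpi, was 3.01 (SE 0.96, adjusted p 0.0155). This contrast chose Rps2-ps13, which shares reads with Rps2, so the value is not independent of that choice.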

How the results depend on the processing

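Of 63 results, 34 kept direction and call under every alternative run, among them the edgeR calls of Gm9008, Gm8822 and Rps2 in tumours against WT at 150 dpi. RLE size factors moved the median log2 change of all genes in that comparison from 0.06 to 0.22. The sum of Gm9008 and Rnf26 then passed (0.44, adjusted p 0.0481), as with DESeq2 (0.44, adjusted p 0.0413), and Actr3 in tumours against CKO at 90 dpi changed sign (0.11 with both). With the deepest library of each animal Atp5o was at -0.010 at 90 dpi. Without tumours the sex differences were 0.038 for Gm8822, -0.64 for Gm5436 and 0.11 for Rps2, and without WT_21167 -0.016 for Gm5436 and 0.010 for Rps2. With each small library as a replicate Rps2 passed (-3.08, adjusted p 0.0080, 10-cell, and -3.61, adjusted p 0.0284, pool-and-split), but libraries of a set may share an animal. Called genes numbered 13 with DESeq2 and 92 with only the 2 groups compared at 12 dpi (3 as reported), and 14 with DESeq2 at 90 dpi (8). On-off genes numbered 1994, 155 and 904 with thresholds of 1 and 0.1 CPM, of 10 and 1 CPM, and with tumours, of which 432, 33 and 89 were processed pseudogenes and 1452, 111 and 779 protein-coding. With thresholds of 1 and 0.1 CPM they held 4 of the 4 copies, and 2 as reported.

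Leaving out 1 animal in turn, log2 changes in tumours against WT ran from -1.09 (without Tumor_16844) to 1.13 (without WT_21590) for Gm5436, from -0.073 to 0.11 for Rnf26, from -0.021 to 0.17 for Actr3 and from -0.58 to -0.24 for Atp5o. At 90 dpi they ran from -0.20 to 0.00048 for Rnf26 and from -0.058 to 0.14 for Atp5o, and against CKO at 90 dpi from -0.15 to 0.025 for Actr3. The sex differences ran from -0.24 to 0.26 for Gm8822, -0.22 to 0.47 for Gm5436 and -0.17 to 0.12 for Rps2. The share of Gm5436 ran from -0.167 to 0.0780 points. Leaving out a set, Rps2-ps13 ran from -8.45 to 0.89 (10-cell) and -8.74 to 0.31 (pool-and-split), and Gm9008 from -0.080 to 2.22 (pool-and-split). Called genes numbered 2 to 6 at 12 dpi (6 without WT_22056) and 4 to 9 at 90 dpi (4 without WT_22255). The cause of these changes was not tested. Low counts limit Gm9008 and Gm5436, with 0 to 4 and 0 to 36 counts in WT animals. The leave-one-out over the sex differences and the wider denominators of Rps2-ps13 were added after seeing the data. No paired analysis was possible because the animals of different groups share no replicate numbers.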
